A study of Oryzias latipes with 6 samples.

Results

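Cyclins and cyclin-dependent kinases (CDKs) form the engine of the cell cycle, and their transcripts were measured here by RNA sequencing of the testis of medaka (Oryzias latipes), a small laboratory fish. The genes were chosen by name in the deposited table: cyclins with a letter name other than ccno, numbered CDKs, the Cdc25 phosphatases, the Wee kinases and pkmyt1, and genes named cdkn2 or cdkn3. Of 24365 genes, 59 were found, 55 by gene symbol and 4, listed under an identifier alone, by their closest Swiss-Prot protein. They comprise 28 cyclins, 21 CDKs and 10 regulators. The study set 3 wild-type libraries beside 3 libraries of fish homozygous for a knockout of nphp4, the gene of a protein at the base of cilia. Each library pooled the testes of 2 fish. Strain, age and the lesion are not given in the labels. The study asked how loss of nphp4 changes testis transcripts.

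A CDK is inactive until a cyclin binds it. D cyclins with Cdk4 and Cdk6 carry a cell out of G1, E and A cyclins with Cdk2 drive DNA replication, and A and B cyclins with Cdk1 drive entry into division. Wee kinases block the CDK by phosphorylation, Cdc25 removes that block, and INK4 proteins keep Cdk4 and Cdk6 from their cyclins. Some other members of both families act in transcription. In the testis the same proteins serve the mitotic divisions of spermatogonia and the meiotic divisions of spermatocytes.

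Values are FPKM, in which the authors divided the fragments of a gene by its length and by a library total, so levels can be compared between genes. The totals inside these values followed median-ratio size factors and not the reads assigned to genes. For wild type 3 the total was 13693794, against 15516979 reads assigned to genes. The libraries held 13438879 to 16054354 reads assigned to genes. nphp4 was at 17.1, 23.5 and 12.2 FPKM in wild type 1, 2 and 3 and at 6.84, 7.0 and 10.9 FPKM in mutant 1, 2 and 3, so it was below every wild-type library in each mutant library but was not lost (adjusted p = 0.436, limma). Wild type 3 stood apart. On the log2 scale it correlated with the other 5 at a median r of 0.890, where the rest had medians of 0.955 to 0.972. Its 6 matched markers of the exocrine pancreas summed to 17157 FPKM, against 259 to 2488 FPKM in the other 5 libraries. The 5 intestinal genes summed to 2588 FPKM in wild type 3 and to 192 FPKM in mutant 2, against 1.22 to 2.36 FPKM elsewhere. Germ cell and Sertoli cell markers were present: the 11 matched genes of meiotic prophase were above 0 in every library and summed to 1469 to 2163 FPKM, and the Sertoli cell gene gsdf was at 746 to 1078 FPKM. For many genes below, the value without wild type 3 is also given. Values given only with wild type 3 may move without it too.

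None of the cyclins, CDKs and regulators passed the threshold between mutant and wild type. Of 57 members that reached a group mean of 1 FPKM, 0 were called by limma (Benjamini-Hochberg adjusted p below 0.05 over all 15203 tested genes), where 0.0592% of all tested genes were called. At an unadjusted p below 0.05, 3 members (5.26%) were higher and 0 lower in the mutant, beside 3.32% of all tested genes higher, 3.82% lower and 7.13% in either direction. limma-voom on reads recovered from the FPKM called 0 of all tested genes, so its 0 called members say nothing about this set. With limma-voom 2 members had an unadjusted p below 0.05, beside 6.19% of all tested genes. The groups did not overlap for 7 members (12.3%), beside a background of 14.0%. Of these, 6 (10.5%) were higher in the mutant, beside 7.55% of all tested genes, and 1 was lower, beside 6.45%. In either direction together both shares lay below the background. The 3 members and the 6 members counted as higher both include ENSORLG00000024266, which entered the test only through its mutant mean.

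The mean level was at least 50 FPKM for 8 members and at least 10 FPKM for 36. By mean FPKM, 52 of the 59 ranked above the median gene of the table. The highest were ccng1, ccnb2 and ccna1, ranked 523, 601 and 701 of the 24365 genes. cdk21, ccnb1, ccnb3, cdk2 and a second cyclin G2 gene completed the 8. At the other end were cdkn2a/b, with 29 reads in all 6 libraries together, and cdk1, which is listed at 0.

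**Figure D1:**
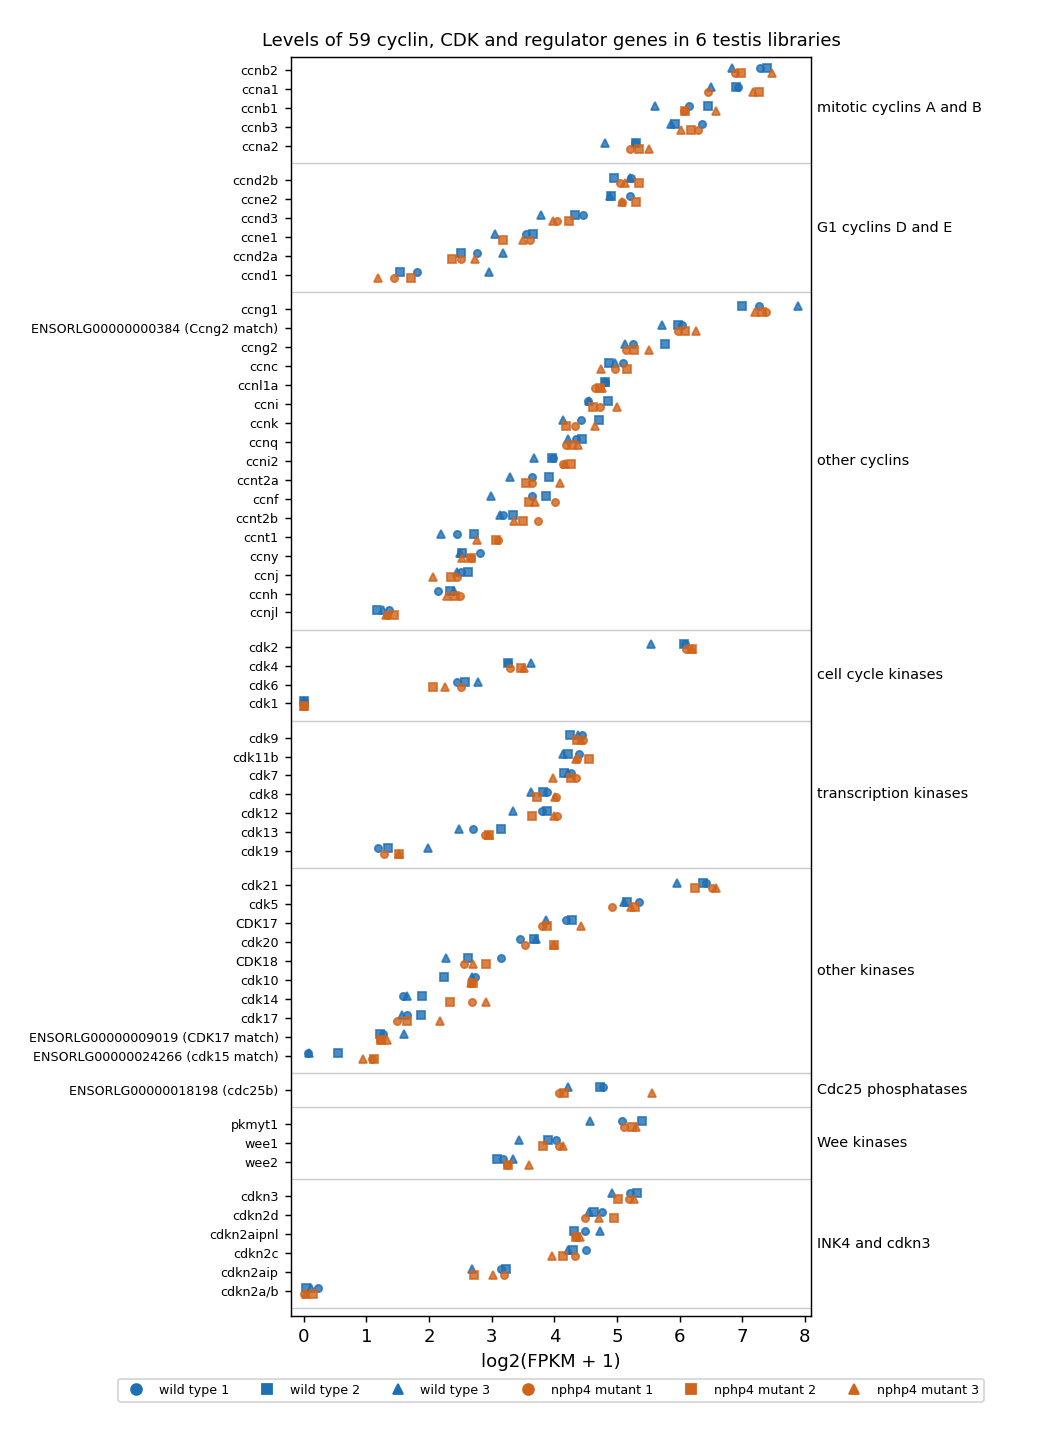
Level of each of the 59 genes, on the log2(FPKM + 1) axis, in each of the 6 libraries, grouped by role and ordered by mean level. Blue marks are wild type, orange marks are mutant, and the shape gives the replicate number; the libraries of both groups lie together for most genes, and cdk1 sits at 0 in all 6.

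Mitotic cyclins were the most abundant class with a direct role in division. Cyclin B2 (ccnb2, ENSORLG00000000615, chromosome 3, 5710209 to 5712592, plus strand), a partner of Cdk1, was at 155, 168 and 114 FPKM in wild type 1, 2 and 3 and at 117, 125 and 178 FPKM in mutant 1, 2 and 3. The groups overlapped throughout. Subtracting the wild-type from the mutant mean of log2(FPKM + 1), the log2 difference was -0.06 (SE 0.21, 95% interval -0.57 to 0.44, adjusted p = 0.960, limma). Cyclin A1 (ccna1, ENSORLG00000003871, chromosome 14, 10139341 to 10175713, plus strand) is a germ line cyclin that mouse spermatocytes need to leave meiotic prophase. It was at 122, 118 and 89.7 FPKM in wild type and at 86.7, 153 and 143 FPKM in the mutant. Here the lowest and the highest libraries were both mutant ones, and the log2 difference was 0.18 (SE 0.24, 95% interval -0.38 to 0.75, adjusted p = 0.893, limma). Without wild type 3 it was 0.045 for ccna1 and -0.23 for ccnb2. An unnamed gene on the other strand overlaps ccna1.

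The other mitotic cyclins were lower and also overlapped between groups. Cyclin B1 (ccnb1), the other main partner of Cdk1, was at 68.1 ± 19.4 FPKM in wild type and at 75.9 ± 16.7 FPKM in the mutant (SD, n = 3). Cyclin B3 (ccnb3), which in mouse is needed for anaphase of female meiosis, was at 65.9 ± 12.8 and 71.0 ± 6.42 FPKM. Cyclin A2 (ccna2), the A cyclin of dividing somatic cells, was at 34.5 ± 6.51 and 40.0 ± 4.27 FPKM. Wild type 3 was the lowest of the 6 libraries for ccna2, ccnb1 and ccnb3. Without it the log2 differences of ccnb1, ccnb3 and ccna2 were -0.056, 0.028 and 0.057, against 0.17, 0.12 and 0.22 with it. The germ line form of cyclin A exceeded the somatic one in every library, with a ratio of 3.08 to 3.33 in wild type and 2.42 to 3.85 in the mutant.

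The ratio of ccnb2 to ccnb1 kept within narrower limits than the levels of either gene. It was 2.21, 1.94 and 2.38 in wild type and 1.77, 1.88 and 1.87 in the mutant, so every wild-type library was above every mutant library. This pair was one of 10 ratios computed after the levels were seen. Of the 10, 3 had groups without overlap, the others being ccnd2b to ccnd1 and cdk21 to cdk6. For cdk21 to cdk6 the gap was narrow, with at most 19.2 in wild type and at least 19.3 in the mutant. Of single tested genes, 14.0% had groups without overlap, and the share among ratios in general was not computed. No test of these ratios was made.

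Among G1 cyclins, one D cyclin and one E cyclin prevailed. Cyclin D2b (ccnd2b, chromosome 23) was at 36.5, 29.9 and 36.0 FPKM in wild type and at 32.2, 39.9 and 33.9 FPKM in the mutant. Cyclin E2 (ccne2, chromosome 16) was at 35.8, 28.9 and 28.5 FPKM in wild type and at 32.7, 38.3 and 32.7 FPKM in the mutant. Both were even across libraries, with log2 differences of 0.05 (SE 0.14, adjusted p = 0.951, limma) and 0.15 (SE 0.14, adjusted p = 0.863, limma). The level of ccne2 was 2.48 to 4.74 times that of its paralog ccne1 over the 6 libraries, and that of ccnd2b was 4.45 to 9.59 times that of ccnd2a. Another gene on the same strand overlaps ccnd2a, and the effect of this on its count was not tested. ccnd3 was at 17.6 ± 4.27 FPKM in wild type and at 16.1 ± 1.52 FPKM in the mutant (SD, n = 3). Its log2 difference of -0.10 was -0.30 without wild type 3 (unadjusted p = 0.0748, adjusted p = 0.674, limma).

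Cyclin D1 had the lowest mean of the class and the most negative log2 difference of all tested members. ccnd1 was at 2.52, 1.89 and 6.76 FPKM in wild type and at 1.71, 2.27 and 1.28 FPKM in the mutant. The excess lay in wild type 3, the library with the most pancreatic and intestinal transcripts. The log2 difference was -0.66 (SE 0.38, adjusted p = 0.804, limma), and without wild type 3 it was -0.23 (adjusted p = 0.911, limma). Whether tissue other than testis has a part in this was not tested.

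Of Cdk2, Cdk4 and Cdk6, Cdk2 (cdk2, ENSORLG00000014972, chromosome 5, 27089334 to 27097066, minus strand), the partner of E and A cyclins and a protein of meiotic telomeres in mouse, was the most abundant. cdk1 could not be ranked, because its listed level cannot be read as absence. cdk2 was at 67.0, 66.5 and 45.7 FPKM in wild type and at 68.0, 72.7 and 72.5 FPKM in the mutant. The groups did not overlap, but wild type 1 and 2 lay just below the lowest mutant library, and a gene on the other strand overlaps cdk2. The log2 difference was 0.27 (SE 0.17, adjusted p = 0.818, limma) and without wild type 3 it was 0.088 (adjusted p = 0.937, limma). Cdk4 and Cdk6, the partners of D cyclins, were low. cdk4 was at 8.56, 8.61 and 11.4 FPKM in wild type and at 8.80, 10 and 10.4 FPKM in the mutant. Its log2 difference of 0.038 was 0.16 without wild type 3. cdk6 was at 5.10 ± 0.746 and 3.88 ± 0.741 FPKM (SD, n = 3; log2 difference -0.33, adjusted p = 0.782, limma).

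Far above both was cdk21 (ENSORLG00000023248, chromosome 8, 5191532 to 5196271, minus strand), a fish kinase whose closest Swiss-Prot match is mouse Cdk6 and which zebrafish males need for normal germ cell proliferation and meiosis. It was at 84.9, 81.7 and 61.2 FPKM in wild type and at 90.2, 75.0 and 94.4 FPKM in the mutant, with groups that overlapped. Per length it exceeded cdk4 by 5.36 to 10.3 times and cdk6 by 10.4 to 25.1 times over the 6 libraries. A gene on the other strand overlaps cdk6. Whether this lowers the count of cdk6, and so raises the ratio, was not tested. The log2 difference of cdk21 between groups was 0.19 (SE 0.17, adjusted p = 0.857, limma), and without wild type 3 it was 0.048.

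cdk1, the kinase that A and B cyclins activate for division, is listed at 0 in all 6 libraries. This cannot be read as absence. The gene (ENSORLG00000019266, chromosome 15, 1587096 to 1590723, plus strand) lies wholly within the span of another gene on the minus strand (ENSORLG00000027844, 1587096 to 1597177). That gene is ctu2, which encodes a subunit of a tRNA-modifying enzyme, and it was at 8.43 to 19.1 FPKM. Among protein-coding genes lying wholly inside a gene on the other strand, 603 of 1465 (41.2%) had no read in any library, against 1107 of 22135 others (5.00%). The strand setting of the counting is not stated. The members cdkn2a/b and ccnh also lie inside such a gene, with 29 and 1309 reads in all.

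None of the 7 kinases of transcription had groups without overlap, beside 14.0% of all tested genes. A class of 7 genes is too small to set against that share. They are known for their action on RNA polymerase II or in the mediator complex, and Cdk7 also activates the CDKs of division. Cdk9, which releases paused polymerase, was at 20.6, 18.0 and 19.9 FPKM in wild type and at 21.0, 19.5 and 20.5 FPKM in the mutant (log2 difference 0.06, SE 0.12, 95% interval -0.23 to 0.35). cdk11b, a kinase tied to splicing, was at 19.9, 17.6 and 16.6 FPKM in wild type and at 19.6, 22.6 and 19.4 FPKM in the mutant (log2 difference 0.18, SE 0.14). Of the other 5, cdk7 of the CDK-activating complex was at 17.5 ± 0.727 and 17.4 ± 2.40 FPKM (SD, n = 3), and cdk8, cdk12, cdk13 and cdk19 had means between 1.82 and 13.5 FPKM over all libraries.

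Their cyclins include the member with the third smallest p. Cyclin T1 (ccnt1, ENSORLG00000016497, chromosome 7, 25916905 to 25924683, plus strand), a partner of Cdk9, was at 4.45, 5.55 and 3.57 FPKM in wild type and at 7.58, 7.35 and 5.82 FPKM in the mutant. Every mutant library was above every wild-type library, from 157 wild-type and 230 mutant reads. The mean level was 1.53 times higher (log2 difference 0.53, SE 0.18, unadjusted p = 0.0241, adjusted p = 0.588, limma). Without wild type 3 the log2 difference was 0.40 (unadjusted p = 0.0581, limma). Its paralog ccnt2b also had groups without overlap, at 8.33 ± 0.702 and 10.6 ± 1.54 FPKM (SD, n = 3; adjusted p = 0.767, limma), while ccnt2a overlapped at 11.4 ± 2.62 and 12.7 ± 2.91 FPKM. cdk9 itself was 3.24 to 5.56 times the level of ccnt1 in wild type and 2.65 to 3.53 times in the mutant, ranges that overlap. ccnh, the cyclin of Cdk7, was at 3.93 ± 0.447 and 4.27 ± 0.377 FPKM, and ccnk, the cyclin of Cdk12 and Cdk13, at 20.8 ± 4.28 and 20.2 ± 3.43 FPKM (SD, n = 3).

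cdk14 came nearest to the threshold of all members. This kinase (ENSORLG00000003794, chromosome 16, 8583978 to 8712229, plus strand) works at the cell membrane with cyclin Y, where in mammalian cells it phosphorylates the Wnt co-receptor LRP6. It was at 1.99, 2.69 and 2.13 FPKM in wild type and at 5.42, 4.07 and 6.48 FPKM in the mutant. All mutant libraries were above all wild-type libraries, from 156 wild-type and 361 mutant reads. The mean was 2.34 times higher, with a log2 difference of 0.94 (SE 0.19, 95% interval 0.48 to 1.40). The unadjusted p was 0.00183 and the adjusted p 0.271 (limma), which is rank 100 of the 15203 tested genes. An exact permutation of the libraries (two-sided) gave p = 0.1, below which 3 libraries against 3 cannot go. The log2 difference was 0.91 without wild type 3 and 1.06 without wild type 3 and mutant 2, the libraries with intestinal transcripts. Whether tissue other than testis has a part in the difference was not tested. cdk14 overlaps another gene on the same strand (ENSORLG00000027429). Its cyclin, ccny, was at 5.14 ± 0.768 and 5.16 ± 0.340 FPKM (SD, n = 3).

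A kinase of the same type had the next smallest p. ENSORLG00000024266 (chromosome 2, 25011160 to 25014850, minus strand) is unnamed and matches zebrafish cdk15, a relative of cdk14 whose function is little known. It held 1, 8 and 1 reads in wild type 1, 2 and 3 and 18, 18 and 17 reads in mutant 1, 2 and 3. The level was thus 0.195 ± 0.236 FPKM in wild type, and it was 1.07 ± 0.130 FPKM in the mutant (SD, n = 3). The groups did not overlap, and the log2 difference was 0.81 (SE 0.27, unadjusted p = 0.0214, adjusted p = 0.568, limma). It entered the test only through its mutant mean, so it had to differ between groups to be tested, and its level is near the lower limit of these libraries.

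**Figure D2:**
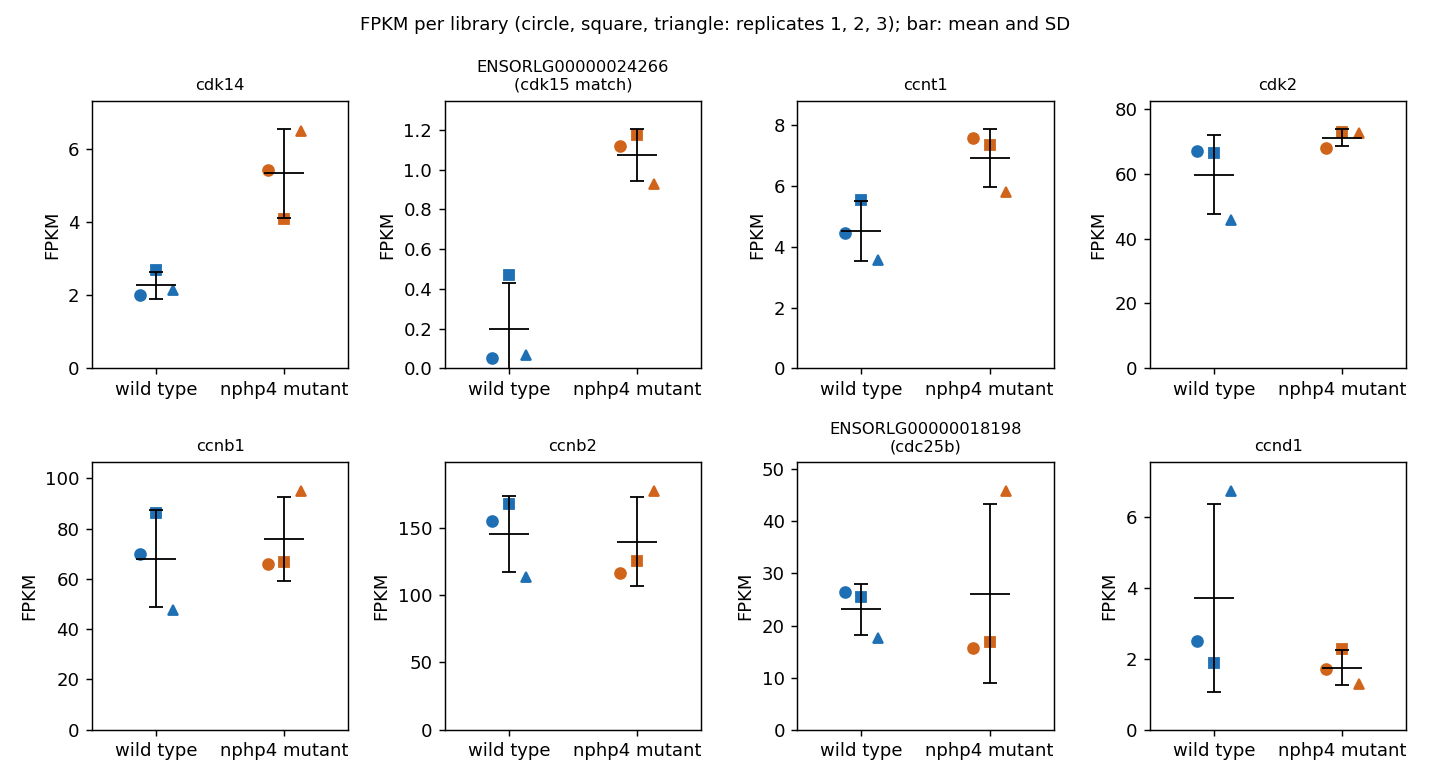
FPKM of 8 genes in each library, with a linear axis from 0 in each panel; points are the 3 libraries of a group and the black bar is their mean with the SD. The groups are apart for cdk14, the cdk15 match and ccnt1, lie close for cdk2, and overlap for ccnb1, ccnb2, cdc25b and ccnd1, where a single triangle (replicate 3) lies away from its group in the last 2.

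The other kinases overlapped between groups. Cdk5, known for its work in neurons, was at 39.7, 34.6 and 33.5 FPKM in wild type and at 29.4, 38.1 and 36.3 FPKM in the mutant (log2 difference -0.06, SE 0.15, adjusted p = 0.945, limma). cdk20, whose protein acts in ciliary length control in mouse and other species, was at 11.3 ± 1.18 and 13.5 ± 2.52 FPKM (SD, n = 3; log2 difference 0.23, 95% interval -0.18 to 0.65). A gene on the other strand overlaps it. The 3 genes that match CDK17 lay at different levels, with means over all libraries of 16.1 FPKM for ENSORLG00000004015, 2.37 FPKM for ENSORLG00000009332 and 1.49 FPKM for ENSORLG00000009019. CDK18 and cdk10 were at 5.60 and 5.18 FPKM over all libraries.

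The remaining cyclins were led by cyclin G1 (ccng1, ENSORLG00000005817, chromosome 10, 17583177 to 17588217, minus strand), a p53 target in mammals. ccng1, which overlaps a gene on the other strand, was at 154, 127 and 237 FPKM in wild type and at 165, 158 and 147 FPKM in the mutant. Wild type 3 was the highest of all 6 libraries, and the log2 difference of -0.09 (SE 0.22) became 0.16 without it, with neither called (adjusted p = 0.944 and 0.892, limma). ENSORLG00000000384, which matches cyclin G2, was at 64.4, 61.5 and 51.6 FPKM in wild type and at 62.1, 66.7 and 75.9 FPKM in the mutant (log2 difference 0.20, SE 0.14). Without wild type 3 its log2 difference was 0.11. The gene named ccng2 was at 41.6 ± 10.3 and 38.9 ± 5.39 FPKM (SD, n = 3). It lies 3133 bases from ccni on chromosome 12, the closest pair of members in the genome. ccni2 had groups without overlap at 13.8 ± 1.66 and 17.3 ± 0.824 FPKM (SD, n = 3; adjusted p = 0.731, limma). ccnl1a, a cyclin of splicing, was the only member with all mutant libraries below all wild-type libraries, at 27.1 ± 0.0642 and 25.2 ± 1.01 FPKM (SD, n = 3; log2 difference -0.10, adjusted p = 0.878, limma). Cyclin F (ccnf), a subunit of a ubiquitin ligase, was at 10.7 ± 3.40 and 12.7 ± 2.10 FPKM (SD, n = 3), and its log2 difference of 0.27 was 0.011 without wild type 3. ccnc, ccnq, ccnj and ccnjl overlapped as well, with log2 differences from -0.24 to 0.098.

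The regulators of Cdk1 and Cdk2 phosphorylation included the member whose log2 difference had the largest SE of the 57. The single Cdc25 gene found by the rule (ENSORLG00000018198, chromosome 22, 25844380 to 25851146, plus strand) has CDC25A as its closest Swiss-Prot match and is described in the table as cdc25b. It was at 26.4, 25.5 and 17.5 FPKM in wild type and at 15.8, 16.8 and 45.9 FPKM in the mutant. Mutant 3 thus held 1907 reads of this gene against 573 and 582 in the other mutant libraries, and the group means, 23.1 and 26.2 FPKM, say little. The log2 difference was 0.02 (SE 0.42, 95% interval -0.98 to 1.01), and without mutant 3 it was -0.46 (unadjusted p = 0.0737, limma). The Wee kinases, which oppose Cdc25, were more even. pkmyt1 was at 32.8, 41.1 and 22.8 FPKM in wild type and at 33.5, 36.9 and 38.6 FPKM in the mutant. wee1 was at 15.3, 13.9 and 9.76 FPKM in wild type and at 15.8, 13 and 16.5 FPKM in the mutant, and wee2, an oocyte kinase in mammals, was at 8.22 ± 0.815 and 9.40 ± 1.5 FPKM (SD, n = 3). Wild type 3 was the lowest library for pkmyt1 and wee1 and the highest wild-type library for wee2. Their log2 differences of 0.20 and 0.22 became -0.016 and 0.042 without wild type 3.

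None of the 5 tested members named cdkn2 or cdkn3 had groups without overlap, beside 14.0% of all tested genes. Here too, 5 genes are too few to set against that share. cdkn3, a phosphatase that removes the activating phosphate of CDKs, was at 36.2, 38.8 and 29.3 FPKM in wild type and at 35.4, 31.5 and 37.6 FPKM in the mutant (log2 difference 0.01, SE 0.15, 95% interval -0.34 to 0.36). Without wild type 3 its log2 difference was -0.10. cdkn2d, an INK4 inhibitor of Cdk4 and Cdk6, was at 26.2, 23.7 and 22.5 FPKM in wild type and at 21.5, 29.9 and 25.1 FPKM in the mutant. cdkn2c, another INK4 gene, was at 19.3 ± 2.09 and 16.8 ± 2.32 FPKM (SD, n = 3; log2 difference -0.20, adjusted p = 0.842, limma). cdkn2d and cdkn2a/b lie on chromosome 1, the sex chromosome of medaka. cdkn2aip and cdkn2aipnl were found by name but encode a binding partner of an INK4 locus protein and its relative, and not inhibitors of CDKs. They had log2 differences of -0.036 and -0.15.

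**Figure D3:**
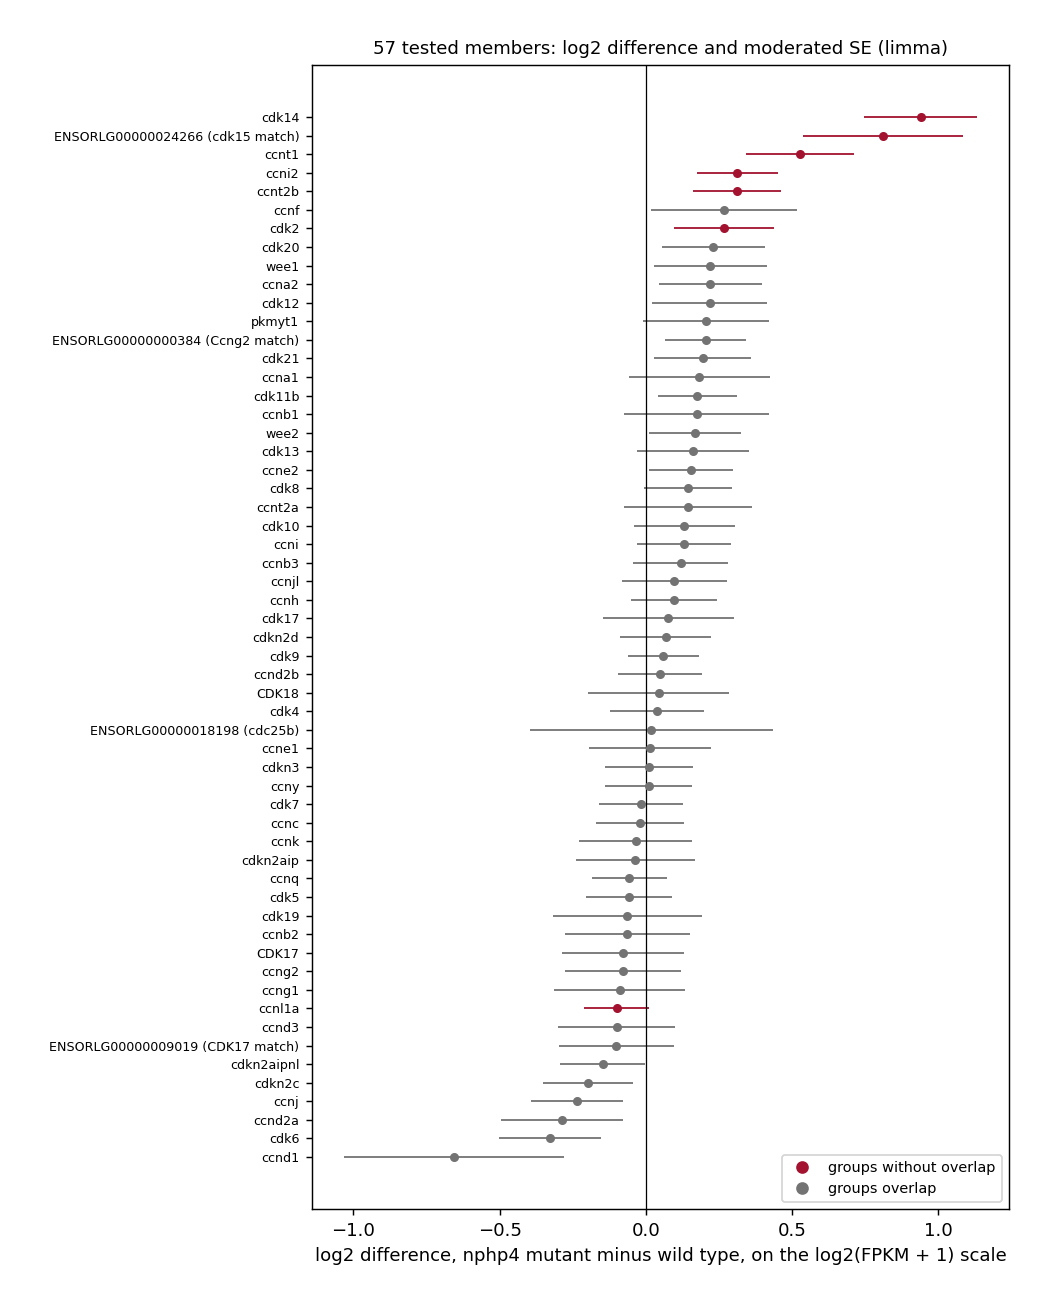
Log2 difference of the 57 tested members, mutant minus wild type, with the moderated SE from limma as the bar; red marks the 7 whose groups do not overlap. The values run from -0.66 (ccnd1) to 0.94 (cdk14), and none passed the threshold.

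Over the 57 tested members the median log2 difference was 0.068, beside 0.0075 over all tested genes, and 37 members (64.9%) were above 0, beside 51.3% of all tested genes. By class the median was 0.17 for mitotic cyclins, -0.043 for G1 cyclins, 0.097 for other cyclins, 0.14 for transcription kinases and 0.20 for the 3 Wee kinases. Leaving out wild type 3, these medians were 0.028, -0.14, 0.011, 0.067 and 0.042 in the same order. The median of the 3 tested cell cycle kinases rose from 0.038 to 0.088 when that library was left out, passing from cdk4 to cdk2. cdk2 itself fell from 0.27 to 0.088, and cdk4 rose from 0.038 to 0.16. For other kinases it went from 0.10 to 0.032, and for INK4 and cdkn3 from -0.036 to -0.10. The single Cdc25 gene went from 0.019 to -0.16. Without wild type 3 the median over the members was 0.016 and 32 of 57 were above 0, beside 52.2% of all tested genes. The precision was moderate: the 95% interval of the log2 difference lay within 1 of 0 for 53 of the 57 members and within 0.5 for 16.

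Wild type 3 was the lowest of the wild-type libraries for 36 of 57 members (63.2%), beside 42.4% of all tested genes. Its median log2 difference from the other wild-type libraries was -0.18 over members and -0.037 over all tested genes. Mutant 1 was the lowest mutant library for 26 of 57 members (45.6%), beside 29.4% of all tested genes, with medians of -0.071 and -0.0053. Summed over the A and B cyclins wild type 3 held 335 FPKM, against 465 and 471 FPKM in wild type 1 and 2 and 382, 456 and 524 FPKM in mutant 1, 2 and 3. The next values concern wild type 3. Several germ cell markers were low in the same library. The spermatocyte list summed to 1469 FPKM there, against 1780 to 2163 FPKM in the other 5, and 9 of its 11 genes were lowest there. The 8 spermatid genes summed to 80.4 FPKM against 94.0 to 142 FPKM, with 5 lowest and 2 highest in wild type 3. The 12 spermatogonial genes summed to 331 FPKM against 384 to 535 FPKM, but piwil1 alone made up 95.8% to 97.4% of that sum. Among the 12, 3 were lowest in wild type 3 and 4 were highest there, namely GFRA1, gfra1b, kita and zbtb16, so the list as a whole was not lower. The part of these shifts in the differences between groups was not tested. In bulk RNA, fewer cells of a type and less RNA per cell cannot be told apart. The matched red blood cell, macrophage and ovarian genes were low in every library, summing to 7.75 to 33.1, 2.96 to 11.1 and 6.59 to 9.43 FPKM. The 4 Leydig genes summed to 46.3 to 91.6 FPKM. Of the listed entries, 5 of 8 for red blood cells, 5 of 7 for macrophages and 4 of 7 for Leydig cells had no match. Sums of those lists are therefore partial.

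**Figure D4:**
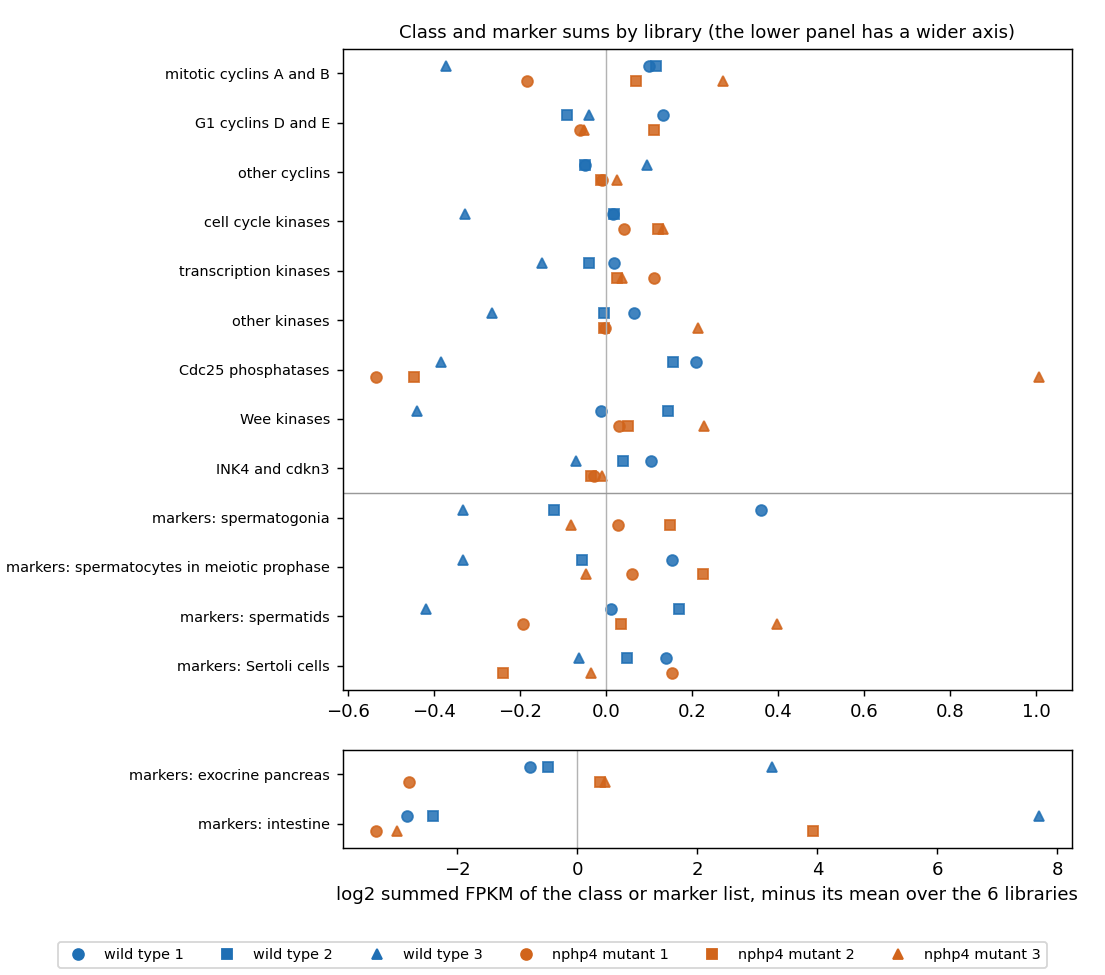
Summed FPKM of each class of members and of 6 marker lists in each library, on a log2 axis relative to the mean over the 6 libraries. Wild type 3 (blue triangle) is lowest for the mitotic cyclins, the Wee kinases, INK4 and cdkn3, and the cell cycle, transcription and other kinases. It is highest for the other cyclins, whose sum of 490 FPKM there includes ccng1 at 237 FPKM. In the other libraries ccng1 was at 127 to 165 FPKM, within sums of 443 to 467 FPKM. The highest place of wild type 3 in this class thus rests on ccng1. It is also lowest for the sums of the 3 germ cell lists, of which the spermatogonial sum is nearly all piwil1. For pancreatic and intestinal genes it is far above the others, and their panel has a wider axis.

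In the machinery around the CDKs no gene was called either. Of 103 tested genes in 6 lists outside the members, 0 were called by limma in either direction, beside 0.0592% of all tested genes, and 1 had an unadjusted p below 0.05, beside 7.13%. Groups did not overlap for 2 of 9 CDK partners and inhibitors, 1 of 17 E2F, DP, Rb and MuvB factors and 2 of 27 ligase genes. The same held for 1 of 18 mitotic kinase and spindle checkpoint genes, 2 of 22 licensing genes and 0 of 10 damage checkpoint genes. Over all tested genes the share was 14.0%. Over the 6 lists 73 of 103 genes were above 0, with a median log2 difference of 0.086, where 51.3% of all tested genes were above 0. Without wild type 3 the count was 47 of 103 and the median -0.015, where 52.2% of all tested genes were above 0, and again 0 were called and 1 had an unadjusted p below 0.05. The count of values above 0 in these lists thus depended on wild type 3.

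The gene with the smallest p was cdkn1cb, a Cip/Kip inhibitor, at 6.05, 4.53 and 6.19 FPKM in wild type and at 3.76, 4.17 and 3.50 FPKM in the mutant, with groups that did not overlap (log2 difference -0.45, SE 0.16, unadjusted p = 0.0278, adjusted p = 0.614, limma). With wild type 3 left out the log2 difference was -0.38 (unadjusted p = 0.0647, limma). In its list of CDK partners and inhibitors, 5 of 9 tested genes were above 0, and 4 of 9 without wild type 3. cdkn1a, the p21 gene, was at 4.77, 3.96 and 13.9 FPKM in wild type and at 4.62, 3.04 and 3.12 FPKM in the mutant. Its high value was in wild type 3, without which the log2 difference went from -0.73 to -0.24.

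The list of E2F, DP, Rb and MuvB factors holds activators and repressors of cyclin genes. Of its tested genes, 14 of 17 were above 0 with a median log2 difference of 0.16. Without wild type 3 these were 6 of 17 and -0.024. e2f7, a repressor of the family, was at 7.33, 7.80 and 4.26 FPKM in wild type and at 9.84, 8.07 and 8.85 FPKM in the mutant. The groups did not overlap, and the log2 difference was 0.44 (adjusted p = 0.770, limma) with wild type 3 and 0.21 without it. e2f4 was at 6.73, 6.42 and 5.02 FPKM in wild type and at 6.70, 7.07 and 7.38 FPKM in the mutant.

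For mitotic kinases and the spindle checkpoint, 15 of 18 were above 0 (median 0.15), and 11 of 18 without wild type 3 (median 0.017). PLK1, a kinase of mitotic entry, was at 62.3, 69.3 and 36.5 FPKM in wild type and at 70.3, 65.7 and 93.0 FPKM in the mutant. The groups overlapped, and the log2 difference of 0.47 was 0.20 without wild type 3. cdca8 of the chromosomal passenger complex was at 108, 115 and 85.3 FPKM in wild type and at 116, 118 and 141 FPKM in the mutant, with a log2 difference of 0.29 that was 0.16 without wild type 3. Its groups did not overlap, by a narrow gap.

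For replication licensing, 16 of 22 were above 0 (median 0.11), and 11 of 22 without wild type 3 (median -0.0044). gins3 of the replicative helicase was at 16.8, 16.2 and 14.8 FPKM in wild type and at 19.1, 19.6 and 19.9 FPKM in the mutant. The groups did not overlap, and its log2 difference was 0.28 with wild type 3 and 0.23 without it (adjusted p = 0.701 and 0.738, limma). dbf4, the activator of Cdc7, was at 19, 15.6 and 14.3 FPKM in wild type and at 18.9, 23.6 and 21.5 FPKM in the mutant.

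For the APC/C and SCF ligases, which destroy cyclins and inhibitors, 16 of 27 were above 0 (median 0.037), and 11 of 27 without wild type 3 (median -0.036). fbxw7, a receptor for cyclin E, was at 7.73, 8.09 and 4.97 FPKM in wild type and at 9.39, 8.91 and 9.58 FPKM in the mutant. The groups did not overlap, and the log2 difference of 0.40 was 0.21 without wild type 3. anapc7, a subunit of the APC/C, was at 17.4, 15.2 and 12.6 FPKM in wild type and at 18.1, 19.3 and 16.7 FPKM in the mutant.

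For the DNA damage checkpoint, 7 of 10 were above 0 (median 0.070), and 4 of 10 without wild type 3 (median -0.048). The gene named HUS1B was at 37.5, 45.9 and 36.1 FPKM in wild type and at 45.5, 47.4 and 51.5 FPKM in the mutant. CLSPN, the claspin gene, was at 9.34, 10.9 and 6.05 FPKM in wild type and at 12, 10.3 and 12.1 FPKM in the mutant. Both overlapped between groups, and the log2 differences of 0.27 and 0.38 were 0.21 and 0.16 without wild type 3.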

How the data were processed

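Per the labels' protocols, TRIzol was used for total RNA of the testis. The authors deposited 1 FPKM value per gene and library beside gene lengths in bases. Tools listed in the submitters' processing notes, without their roles, are HISAT2 2.0.5, DESeq2 1.20.0, featureCounts 1.5.0-p3, CASAVA 1.8 and fastp. The genome build, annotation and strand setting are not given in the sources used here, and coordinates are those of the deposited table. FPKM times gene length gave whole reads for 100% of values above 0 (within 0.01 read), and the library totals inside the FPKM equalled median-ratio size factors times a constant.

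limma 3.58.1 in R 4.3.3 was fitted to log2(FPKM + 1) of the 15203 genes that reached a group mean of 1 FPKM in 1 group or both, with trend and robust moderation and no covariate. Differences on this scale understate the change of low genes. p-values were adjusted by Benjamini-Hochberg over all tested genes, and the fit was tested on simulated data. Of the 59 members, 57 were tested, 56 of which reached 1 FPKM in both groups. 20 of the 59 overlap another gene, 15 of them on the other strand. The replicates are pools of different fish, and no litter or tank is given. Lists were matched by symbol, with 682 symbols taken through NCBI gene numbers from the RefSeq table of ASM223467v1. The members and lists were chosen with earlier results of these data known. Library values are given for the 2 most abundant members of each class, members with an unadjusted p below 0.05, and the 2 genes of smallest p of each list; other genes were named after their values were seen. No sequences were used here.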

Additional observations from a re-analysis of the deposited data

How the results depend on the processing

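The number of cyclin and CDK members called by limma was 0 under all 13 alternatives (smallest adjusted p 0.219 to 0.785 over them, with 1 to 4 members at an unadjusted p below 0.05). The fit without wild type 3 and mutant 2, and the median over members that overlap no other gene (0.049), were chosen after seeing the data. The median over members ranged from 0.016 to 0.12. The count of genes called over the whole table was 9, against 14 with scaling by library totals, 0 with limma-voom (941 at an unadjusted p below 0.05), 6 with the replicate block and 2 to 18 with 1 library left out (4 without wild type 1, 18 without wild type 3, 3 without mutant 1, and 2 without mutant 2 or mutant 3); the cause was not tested, except that fewer samples enter when a library is left out. The deviations of same-numbered libraries correlated at 0.31, -0.56 and -0.42. The largest correlation, 0.61, was between wild type 3 and mutant 2, the libraries with intestinal transcripts. With such transcripts present and 3 libraries per group, these values cannot decide whether equal numbers mark pairs. With the replicate block 0 members were called, and 2 had an unadjusted p below 0.05. cdk14 kept its direction throughout (log2 difference 0.81 to 1.28, adjusted p 0.219 to 0.785), as did ccnt1 (0.36 to 0.67, adjusted p 0.574 to 0.981). The log2 difference of the cdk15 match ran from 0.70 to 2.87 (adjusted p 0.314 to 0.996). The cdk15 match entered the main test only through its mutant mean, so its constant direction is no further evidence. Among the 20 members chosen as the 2 most abundant of a class or by an unadjusted p below 0.05 (limma), 10 changed sign somewhere, none of them called. Other members given in the text are outside this count, and some of them changed sign too, such as ccnb1 (0.17 with all libraries and -0.056 without wild type 3). With 1 library left out, log2 differences ran from -0.248 to 0.053 for ccnb2, -0.040 to 0.112 for ccnd2b, -0.284 to 0.162 for ccng1, -0.026 to 0.163 for cdk4, -0.130 to 0.052 for cdk5, -0.048 to 0.180 for cdkn2d, -0.104 to 0.092 for cdkn3, -0.462 to 0.280 for cdc25b and -0.016 to 0.395 for pkmyt1. Without wild type 3 and mutant 2 they were -0.107 for ccna1, 0.153 for ccng1, -0.096 for cdkn2d, -0.036 for cdkn3 and -0.028 for pkmyt1. Depth limits the cdk15 match, with 63 reads, and cdkn2a/b.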
